A study of Rattus norvegicus with 43 samples.

Results

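Cholesterol is built from acetyl-CoA through mevalonate, isoprenoid units and squalene, and the genes described here encode successive enzymes of that route. The set was defined as Hmgcs1, Idi1, Fdps, Fdft1, Sqle, Lss and Cyp51, 7 genes in all, and its members were found by the gene symbol that the array platform's annotation gives each probe set. A total of 18 of 8740 probe sets (control probe sets left out) carried the symbol of a member. They covered 6 of the 7 genes: Idi1 with 2 probe sets, Fdps with 3, Fdft1 with 4, Sqle with 1, Lss with 3 and Cyp51 with 5. Hmgcs1 was named by no probe set in the table used and was not analysed here.

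Female Sprague-Dawley rats, 100 days old at the start, were treated for 7 days with a retinoid or a rexinoid, and RNA of liver, lung and mammary gland was hybridised to 43 Affymetrix arrays. Targretin, also named bexarotene and a rexinoid that binds the retinoid X receptors, was given by gavage at 60 mg/kg body weight, 9cRA (9-cis retinoic acid, a ligand of both retinoic acid and retinoid X receptors) at 100 mg/kg of diet, and 4HPR (4-hydroxyphenylretinamide, a synthetic retinamide) at 782 mg/kg of diet. The control animals, called diet here, had the diet alone, and the labels name no group that received the gavage vehicle, so route and agent cannot be told apart for Targretin. Targretin had 3 arrays in each organ, 9cRA had 4 in each, 4HPR had 4 liver, 4 lung and 3 mammary gland arrays, and diet had 4 liver, 3 lung and 4 mammary gland arrays. Nothing in the labels says that each array stands for its own animal, so p-values measure only the spread between arrays, which may be technical. Arrays are named by the number in their title, and the diet lung arrays are numbered 2, 3 and 4.

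As background, the pathway is governed in large part by the SREBP transcription factors, which are held in the endoplasmic reticulum with SCAP by the INSIG proteins when sterol is plentiful and move to the Golgi to be cleaved when it is scarce. SREBP-2 acts mainly on cholesterol genes and SREBP-1c mainly on fatty acid genes, and the gene of SREBP-1c is a target of the LXR receptors, which pair with retinoid X receptors. Liver is a main site of cholesterol synthesis, and the members usually move together there.

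The RefSeq promoter table for build GRCr8 listed 5 of the 7 genes (Hmgcs1, Idi1, Fdps, Lss and Cyp51), each as 250 bases before and 50 bases after the start of the gene. The windows of Idi1, Fdps and Cyp51 are shown because Idi1 and Cyp51 were higher in liver under 9cRA or 4HPR while no Fdps probe set passed the test there. They lie at chr17:66547475-66547774 (minus strand), chr2:176804767-176805066 (minus strand) and chr4:30991443-30991742 (plus strand). Capitals mark matches, on either strand, to CCAAT (the CCAAT box), GGGCGG (the GC box) or AGGTCA (a nuclear receptor half-site). None of these matches overlapped another.
Idi1: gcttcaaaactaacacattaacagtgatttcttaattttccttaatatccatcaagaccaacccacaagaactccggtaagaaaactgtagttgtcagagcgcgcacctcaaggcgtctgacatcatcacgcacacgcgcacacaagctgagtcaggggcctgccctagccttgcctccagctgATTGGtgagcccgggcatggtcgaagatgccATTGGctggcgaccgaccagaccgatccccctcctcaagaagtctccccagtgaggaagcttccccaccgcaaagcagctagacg
Fdps: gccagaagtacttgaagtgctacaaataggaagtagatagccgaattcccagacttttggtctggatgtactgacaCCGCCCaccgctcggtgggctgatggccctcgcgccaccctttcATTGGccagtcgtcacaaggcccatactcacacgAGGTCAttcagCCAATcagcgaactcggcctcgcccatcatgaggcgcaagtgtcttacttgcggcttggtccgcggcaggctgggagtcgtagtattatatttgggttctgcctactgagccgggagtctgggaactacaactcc
Cyp51: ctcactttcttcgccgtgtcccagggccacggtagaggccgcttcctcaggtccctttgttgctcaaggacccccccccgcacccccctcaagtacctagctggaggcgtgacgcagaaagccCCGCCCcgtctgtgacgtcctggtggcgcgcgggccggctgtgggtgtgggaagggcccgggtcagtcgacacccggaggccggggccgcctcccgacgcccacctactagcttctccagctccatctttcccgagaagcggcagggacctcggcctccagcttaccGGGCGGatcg
CCAAT or its complement was present in 4 of the 5 member windows, against 37.5% of all 33469 windows in the table. GGGCGG was present in 4 of the 5, against 33.1% of all windows. AGGTCA was present in 1 of the 5, that of Fdps, against 16.2% of all windows. TCACNCCAC, a core form of the sterol response element, was present in 0 of the 5, against 1.12% of all windows. A match is a description of the letters in these windows, and no match says only that these letters are not there.

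The values are Affymetrix MAS5 signals on a linear scale, scaled by the authors to a common array mean. They were tested with limma on log2(signal + 38.1), so 1 unit of the differences below is close to a 2-fold change for bright probe sets and less than the true change for dim ones. Testing in an organ required a signal above the array's 40th percentile on at least 3 of its arrays: 17 of the 18 member probe sets passed for liver, 15 for lung and 14 for mammary gland. The second Idi1 probe set (rc_AI045395_at) passed in no organ, with signals from 5.3 to 323.6 over the 43 arrays. A change is called where the Benjamini-Hochberg adjusted p over all probe sets tested is under 0.05. The 3 agents share the diet arrays of an organ, so their comparisons are not independent of each other.

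The organ labels were borne out by marker genes. Summed hepatocyte markers lay between 386067.6 and 674644.8 in liver and at most 116686 elsewhere, summed lung epithelial markers between 238721.4 and 450624 in lung and at most 18771.6 elsewhere, and summed adipocyte markers between 97236.8 and 259100.2 in mammary gland and at most 16055.2 elsewhere. Some arrays stood apart. The 3'/5' signal ratio of beta-actin, a sign of RNA quality, was 2.96 on 4HPR liver array 4 and 5.46 on Targretin lung array 2, against at most 1.97 on the other liver and lung arrays, and it ran from 2.86 to 6.21 on the mammary gland arrays. Hepatocyte markers summed to 116686 on 4HPR lung array 3 and 36323.4 on diet lung array 2, with 34330.7 on 4HPR lung array 2. In mammary gland they summed to 53806.9 to 96306.6 on diet, 28941.6 to 88714.2 under 9cRA and 47201.5 to 99552.4 under 4HPR. Under Targretin the mammary gland sums were 3735.6 to 8119.8. The part of these hepatocyte sums in the member values was not tested. Skeletal muscle markers summed to 51979.2 on Targretin mammary gland array 3, against at most 2840.6 on the other mammary gland arrays. In tissue RNA, fewer cells of a type and less RNA per cell cannot be told apart.

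**Figure D1:**
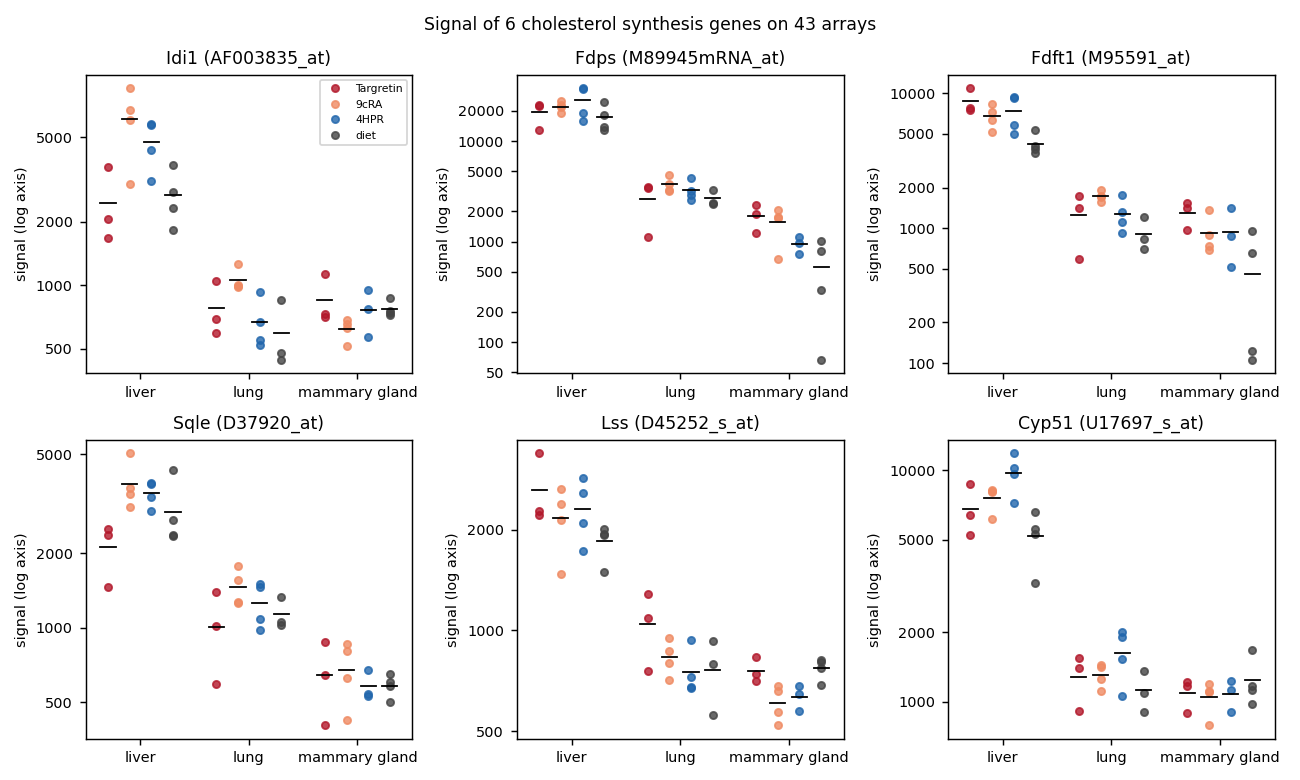
Signal of the brightest probe set of each of the 6 genes (log axis) on every array, grouped by organ, with Targretin, 9cRA, 4HPR and diet from left to right in each organ; bars are group means. Liver lies above both other organs for all genes, except that the highest lung arrays of Sqle, up to 1769.1, exceed its lowest liver array at 1456.4.

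In rats on diet alone the tested member probe sets were highest in liver, though 15 also passed the filter in lung and 14 in mammary gland. All 17 member probe sets tested were higher in liver than in lung, where 55.4% of all probe sets tested were called in either direction, and all 17 were higher in liver than in mammary gland, where 59.4% were called. Of these, 2 for lung (Lss E12275cds_s_at and Cyp51 rc_AI230255_at) and 3 for mammary gland (the same and Cyp51 rc_AA997614_s_at) passed the filter only through liver, where they are high, so they had to differ. Of the probe sets that passed in both organs, 15 of 15 were higher in liver than in lung and 14 of 14 higher than in mammary gland, with medians of 2.19 and 2.10. The median of all probe sets tested was -0.37 on the log2 scale for liver against lung and -0.07 for liver against mammary gland. Mammary gland and lung differed less for these genes: 6 of 15 probe sets were called, 1 higher and 5 lower in mammary gland, where 44.8% of all were called.

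Fdps, which makes farnesyl diphosphate, the branch point between sterols and other isoprenoids, had the widest span between organs, but not on all its probe sets. Its brightest probe set (M89945mRNA_at) read 18369.0, 13038.6, 14006.3 and 24830.1 in diet liver, against 3295.7, 2425.5 and 2372.4 in diet lung and 1027.0, 66.7, 327.7 and 812.1 in diet mammary gland. The 3 organs did not overlap. Liver exceeded mammary gland by 5.30 ± 0.43 (log2, SE; limma adjusted p = 1.75e-13) and lung by 2.65 ± 0.46 (adjusted p = 6e-06), and mammary gland was lower than lung by -2.65 ± 0.46 (adjusted p = 1.35e-05). The mammary gap is smaller on rc_AI180442_at, where liver exceeded mammary gland by 2.74 and lung by 2.95. That is less than the 3.57 between liver and mammary gland on Fdft1 M95591_at. The other Fdft1 probe sets gave 2.32 (M95591_g_at), 2.18 (rc_H33426_g_at) and 1.13 (rc_H33426_at). The lowest diet mammary gland arrays of Fdps M89945mRNA_at, at 66.7 and 327.7, also had the lowest 3' control signals of that organ, given below.

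Sqle, squalene monooxygenase, the first oxygen-dependent step, read 2363.6, 2339.7, 2710.2 and 4313.6 in diet liver, against 1332.2, 1022.7 and 1058.6 in diet lung and 602.0, 653.2, 579.9 and 500.6 in diet mammary gland. These 3 groups did not overlap either, and mammary gland was lower than lung by -0.92 ± 0.26 (adjusted p = 0.00449). Idi1, isopentenyl diphosphate isomerase, read 2328.7, 1823.3, 2766.8 and 3713.9 in diet liver, against 850.5, 480.7 and 443.8 in diet lung and 868.4, 725.2, 752.2 and 739.2 in diet mammary gland. Lung and mammary gland overlapped for Idi1, and their difference did not pass the test (0.41 ± 0.30, adjusted p = 0.264).

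Lss, lanosterol synthase, which closes the sterol rings, was higher in liver than in lung by 1.26 ± 0.21 and than in mammary gland by 1.22 ± 0.19 on D45252_s_at (adjusted p = 2.23e-06 and 9.59e-07). Cyp51, which removes a methyl group from lanosterol, was higher in liver by 2.14 ± 0.24 and 2.02 ± 0.22 on U17697_s_at (adjusted p = 5.52e-10 and 3.55e-10). For both genes the difference between mammary gland and lung was small on these probe sets, 0.04 for Lss and 0.13 for Cyp51, and did not pass. The Cyp51 probe set AB004096_at was the 1 called higher in mammary gland than in lung (0.81, adjusted p = 0.0117). The 5 lower calls were both M89945mRNA probe sets of Fdps, M95591_at of Fdft1, D37920_at of Sqle and rc_AA997614_s_at of Cyp51. Leaving out single arrays ended the AB004096_at call (without diet lung 3 or 4, adjusted p = 0.0926 and 0.0697) and that of M95591_at (without diet lung 2, or diet mammary gland 2 or 3, adjusted p = 0.0534 to 0.0685).

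In liver, a few member probe sets were called higher than diet under each agent, and none was called lower. With 1 probe set a gene, 1 of 6 genes was called under each agent. Targretin raised Fdft1 on 3 probe sets, 9cRA raised Idi1 and 1 probe set of Cyp51, and 4HPR raised Cyp51 on 2 probe sets and Fdft1 on 1. That is 3 of 17 member probe sets under Targretin, where 11.1% of all probe sets tested were called, 2 of 17 under 9cRA, where 5.16% were called, and 3 of 17 under 4HPR, where 2.78% were called. The median difference of the 17 members was 0.40 under Targretin, 0.47 under 9cRA and 0.64 under 4HPR, against medians of all probe sets of -0.02, -0.01 and -0.11. Some marker sums moved with the groups without overlap: the 8 hepatocyte genes summed to 567004.7 to 674644.8 in 9cRA liver and 398938 to 479696.3 in diet liver, 4 macrophage genes to 4532.2 to 6974.3 in Targretin liver and 7651.8 to 9086.1 in diet liver, and 2 blood genes to 16517.9 to 31712.8 in Targretin liver and 37791.9 to 66645.5 in diet liver. The 5 adipocyte genes did not overlap either, at 7895.2 to 8674 in Targretin liver and 5168.4 to 6952.5 in diet liver. The 8 genes of the mammary epithelium list summed to 18163.8 to 22246.5 in Targretin liver and 17602.3 to 28373.4 in 4HPR liver. In diet liver they summed to 13213.7 to 17506.8. The part of these marker sums in the member changes was not tested. Under 4HPR 17 of 17 member probe sets had a positive difference, against 38.5% of all probe sets, under 9cRA 16 of 17, against 48.4%, and under Targretin 12 of 17, against 48.5%. The 38.5% goes with the 4HPR median of -0.11 over all probe sets, which was -0.00232 with quantile normalization. The member probe sets stand for 6 genes and share the diet arrays, so their signs are not independent. With 1 probe set a gene the median was 0.27 under Targretin, 0.49 under 9cRA and 0.63 under 4HPR.

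**Figure D2:**
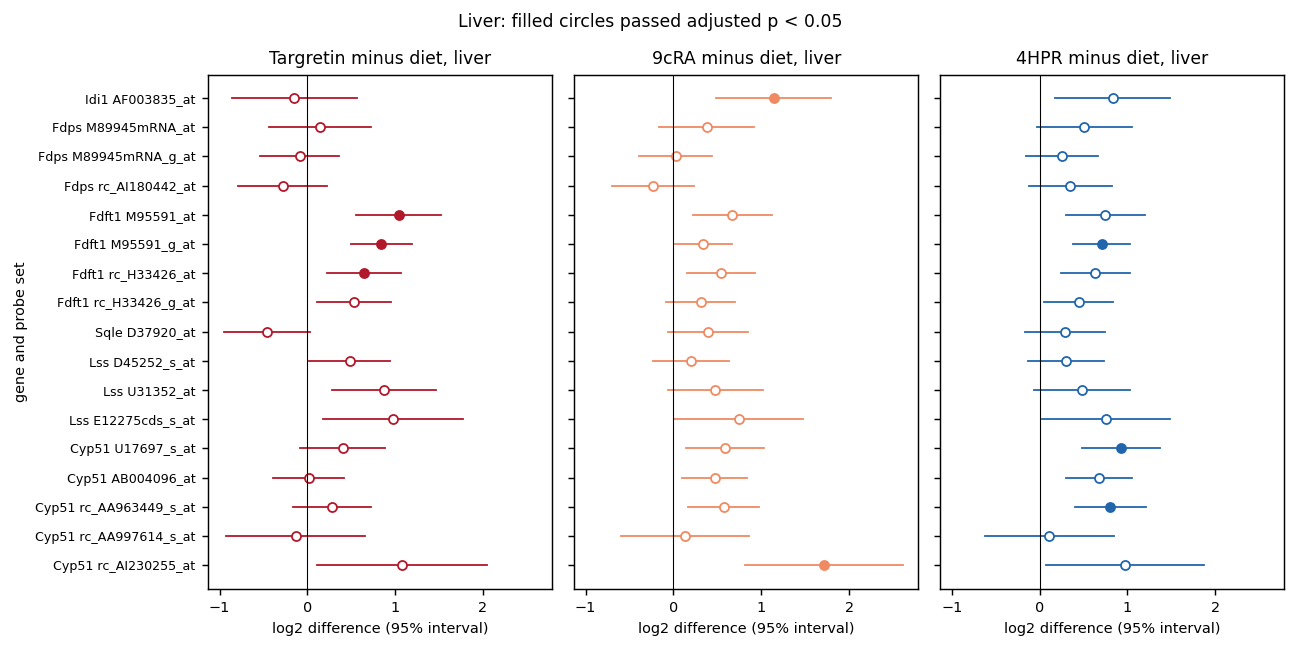
Log2 difference from diet in liver, with its 95% interval, for the 17 member probe sets tested (rows) under Targretin, 9cRA and 4HPR; filled circles are called at adjusted p under 0.05. The 4 Fdft1 probe sets lie right of 0 in all panels, and Idi1 lies near 0 under Targretin (-0.15) and at 1.14 under 9cRA.

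Fdft1, squalene synthase, commits farnesyl diphosphate to sterols by joining a pair of its molecules into squalene. Its probe set M95591_at read 10898.0, 7784.3 and 7523.0 in Targretin liver, 6343.2, 5161.8, 8291.1 and 7215.0 in 9cRA liver and 9340.2, 5765.5, 9223.9 and 4962.4 in 4HPR liver, against 3632.4, 3863.6, 4086.9 and 5310.9 in diet liver. Every Targretin array lay above every diet array, while 9cRA and 4HPR overlapped diet through diet array 4. Targretin exceeded diet by 1.04 ± 0.23 (SE, limma adjusted p = 0.00621), 9cRA by 0.67 ± 0.21 (adjusted p = 0.0809) and 4HPR by 0.75 ± 0.21 (adjusted p = 0.0689).

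On M95591_g_at, built from the same transcript sequence, the Fdft1 signal was 4288.3, 3327.6 and 3563.8 in Targretin liver and 3174.0, 2618.3, 3981.5 and 3922.8 in 4HPR liver, against 2138.5, 2184.2, 1773.3 and 2129.7 in diet liver. Neither group overlapped diet, and 9cRA liver, whose lowest array read 2196.8, did not overlap it either. The differences were 0.84 ± 0.17 under Targretin (adjusted p = 0.00271) and 0.71 ± 0.15 under 4HPR (adjusted p = 0.0175), and under 9cRA 0.34 ± 0.15 (adjusted p = 0.234). The remaining Fdft1 probe sets, rc_H33426_at and rc_H33426_g_at, differed from diet by 0.64 and 0.53 under Targretin, with adjusted p = 0.0468 and 0.101. The Targretin calls on both M95591 probe sets held under all 14 alternatives tried, whereas that on rc_H33426_at was lost in 7 of them, among them without each Targretin array or diet array 1, 2 or 3 (adjusted p = 0.0681 to 0.197). Without 4HPR liver array 4, whose control ratio was high, M95591_at was also called under 4HPR (0.92, adjusted p = 0.0165).

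Idi1 acts early, turning isopentenyl diphosphate into its reactive isomer. It read 2047.6, 3617.7 and 1669.1 in Targretin liver, 8553.3, 6061.0, 6731.4 and 3009.3 in 9cRA liver and 5806.8, 4369.7, 5746.2 and 3123.6 in 4HPR liver, against 2328.7, 1823.3, 2766.8 and 3713.9 in diet liver. For 9cRA 3 of 4 arrays, and for 4HPR 3 of 4, lay above every diet array, and of the Targretin arrays 1 lay below the diet range and 2 within it. The difference was 1.14 ± 0.31 under 9cRA (adjusted p = 0.0416), 0.84 ± 0.31 under 4HPR (adjusted p = 0.16) and -0.15 ± 0.34 under Targretin (adjusted p = 0.836). The 9cRA call is close to the threshold: it was lost in 8 of 15 alternatives, 6 of which left out 1 array (9cRA 1, 2 or 3, or diet 1, 2 or 3), with adjusted p = 0.0779 to 0.133.

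Cyp51 had 5 probe sets, which differed in size. U17697_s_at read 6384.6, 8748.9 and 5227.8 in Targretin liver, 8052.2, 8094.8, 8164.3 and 6127.3 in 9cRA liver and 9627.7, 7214.5, 10161.9 and 11801.2 in 4HPR liver, against 5323.5, 3252.0, 5541.3 and 6586.0 in diet liver. All 4HPR arrays lay above all diet arrays. It was higher by 0.92 ± 0.21 under 4HPR (adjusted p = 0.0244), by 0.59 ± 0.21 under 9cRA (adjusted p = 0.121) and by 0.40 ± 0.23 under Targretin (adjusted p = 0.308).

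The Cyp51 probe set rc_AA963449_s_at was also called under 4HPR (0.81 ± 0.19, adjusted p = 0.0323), and AB004096_at missed the threshold (0.67 ± 0.18, adjusted p = 0.05). Under 9cRA the call came from the dim probe set rc_AI230255_at, which read 1641.0, 1622.9, 555.5 and 1027.1 in 9cRA liver, against 702.5, 154.3, 131.5 and 592.4 in diet liver. Its groups overlapped through 9cRA array 3 and diet arrays 1 and 4, and the difference was 1.71 ± 0.43 (adjusted p = 0.0251). The fifth, rc_AA997614_s_at, differed little from diet under every agent (-0.13 under Targretin, 0.13 under 9cRA, 0.11 under 4HPR). The 4HPR call on U17697_s_at was lost in 4 of 15 alternatives, among them without 4HPR array 1 or 3 or diet array 2 (adjusted p = 0.0611 to 0.0807). That on rc_AA963449_s_at was lost in 7 of 15, 5 of which left out 1 array (4HPR 3 or any diet array), and that of rc_AI230255_at under 9cRA in 5 of 15, each without 1 array (9cRA 1, 2 or 4, or diet 2 or 3). The M95591_g_at call of Fdft1 under 4HPR was lost in 3 of 15, among them without 4HPR array 3 or diet array 3 (adjusted p = 0.0605 and 0.066).

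Sqle, Lss and Fdps passed in no comparison with diet in liver. Sqle read 2359.6, 2505.0 and 1456.4 in Targretin liver, 5044.8, 3452.0, 3644.8 and 3057.0 in 9cRA liver and 3825.0, 2947.9, 3812.0 and 3368.5 in 4HPR liver, against 2363.6, 2339.7, 2710.2 and 4313.6 in diet liver. The groups overlapped in each case, and the differences were -0.46 ± 0.23, 0.39 ± 0.22 and 0.29 ± 0.22 under Targretin, 9cRA and 4HPR. The 3 Lss probe sets differed from diet by 0.48 to 0.97 under Targretin, the closest to the threshold being U31352_at (0.87 ± 0.28, adjusted p = 0.0522).

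Fdps (M89945mRNA_at) read 22510.0, 12958.7 and 22763.5 in Targretin liver, 21751.8, 22744.1, 24996.0 and 19127.1 in 9cRA liver and 33778.3, 16035.3, 33226.7 and 19208.9 in 4HPR liver, against 18369.0, 13038.6, 14006.3 and 24830.1 in diet liver. Its difference from diet was 0.15 under Targretin (95% interval -0.43 to 0.72), 0.38 under 9cRA (-0.16 to 0.91) and 0.51 under 4HPR (-0.02 to 1.05). The other Fdps probe sets did not share these signs throughout: rc_AI180442_at gave -0.28, -0.23 and 0.35, and M89945mRNA_g_at -0.09, 0.03 and 0.26, under Targretin, 9cRA and 4HPR.

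The agents were then set against each other in liver, with the limit that their doses and routes differ. Targretin was lower than 9cRA on 2 of 17 member probe sets, where 5.72% of all were called, and lower than 4HPR on 1 of 17, where 7.87% were called. Idi1 was lower under Targretin than under 9cRA by -1.29 ± 0.34 (adjusted p = 0.0293), with 2 of 3 Targretin arrays below every 9cRA array. Sqle was lower under Targretin than under 9cRA by -0.85 ± 0.23 (adjusted p = 0.0381), and its 3 Targretin arrays all lay below its 4 9cRA arrays. Cyp51 was lower under Targretin than under 4HPR on AB004096_at (-0.66 ± 0.19, adjusted p = 0.0435), where the signals were 3596.1, 4159.3 and 2183.1 in Targretin liver and 4850.7, 4407.7, 5701.0 and 5406.2 in 4HPR liver.

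The member differences between agents rest on few arrays. Idi1 lost the call in 6 of 14 alternatives, 5 of them without 1 array (Targretin 1 or 3, or 9cRA 1, 2 or 3; adjusted p = 0.066 to 0.138), and Sqle in 8 of 14, 5 of them without the same arrays (adjusted p = 0.0587 to 0.189). Cyp51 AB004096_at lost it in 9 of 14, 5 of them without 1 array (Targretin 1 or 3, or 4HPR 1, 3 or 4; adjusted p = 0.0634 to 0.197). Between 9cRA and 4HPR limma called 0 of 17 members and 0.164% of all probe sets, and 2 members were under an unadjusted p of 0.05, against 723 of all 6084.

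Across the 15 liver arrays the log2 values of Idi1 and Sqle ran together most closely of the 15 pairs of genes (Pearson r = 0.847), and those of Fdft1 and Sqle least (r = 0.0882). The median r over the pairs was 0.502 for liver, 0.5 for lung and 0.163 for mammary gland. These arrays share groups and scaling, so the values are descriptive. The 5 genes most like the mean of the members over the liver arrays, of 4955 candidates, were Ebp (r = 0.786), Rgs19 (0.783), Akr1c3 (0.764), Nsfl1c (0.751) and Grk6 (0.745). Ebp encodes a sterol isomerase of the same pathway. Over all 43 arrays, each centred on its organ mean, they were Cox5b (0.68), Pebp1 (0.638), Cox8a (0.635), Msmo1 (0.622) and Cox6c (0.614), of which Msmo1 is a pathway enzyme.

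Other genes of the route did not share 1 direction under Targretin. Of 12 further cholesterol pathway genes listed, 7 had a probe set and were tested in liver: 1 rose, 1 fell and 5 did not pass under Targretin, and 0 of 7 passed under 9cRA and 0 of 7 under 4HPR. Acat2, the thiolase that starts the route, averaged 6361 ± 1250 in Targretin liver and 3439 ± 754.6 in diet liver (SD, n = 3 and 4; difference 0.89, adjusted p = 0.0155). Msmo1, a methylsterol oxidase acting after Cyp51, averaged 6681 ± 573.4 in Targretin liver, 17730 ± 3864 in 9cRA liver and 15780 ± 2263 in 4HPR liver, against 12870 ± 4192 in diet liver (SD). It fell by -0.89 under Targretin relative to diet (adjusted p = 0.00829) and was lower under Targretin than under 9cRA by -1.38 (adjusted p = 0.000294) and than under 4HPR by -1.23 (adjusted p = 0.000882). These 7 genes were higher in diet liver than in diet lung and in diet mammary gland, but Hsd17b7 passed the filter only through liver. Their median difference from diet in liver was -0.01, 0.33 and 0.48 under Targretin, 9cRA and 4HPR.

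Among genes of sterol control and traffic, 7 of 14 were measured, and 2 rose under Targretin in liver and 0 under 9cRA or 4HPR. Insig1, which retains SCAP in the endoplasmic reticulum, averaged 21840 ± 7025 in Targretin liver and 9747 ± 2958 in diet liver (SD; difference 1.16, adjusted p = 0.00249). Srebf1, the gene of SREBP-1, averaged 5010 ± 4077 in Targretin liver and 1687 ± 280.2 in diet liver (difference 1.28, adjusted p = 0.0491). Srebf1 also rose under Targretin in lung (2.29, adjusted p = 0.0269) and in mammary gland (1.85, adjusted p = 0.0497), and its 3 calls were lost in 6 of 14, 5 of 13 and 9 of 14 alternatives.

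Of the use, storage and export genes, 6 of 13 were measured. Lipa, lysosomal acid lipase, fell in liver under Targretin (15420 ± 915.3 in Targretin liver and 27730 ± 1559 in diet liver, SD; difference -0.85, adjusted p = 0.000201), and the other 5 did not pass. Of the fatty acid synthesis genes, 9 of 12 were measured in liver: 7 rose and 0 fell under Targretin (median 2.84), 3 rose and 1 fell under 9cRA (median 0.12), and 2 rose and 1 fell under 4HPR (median 0.48). Fasn, fatty acid synthase, was higher than diet by 3.03 under Targretin (adjusted p = 1.86e-08), by 1.0 under 9cRA (adjusted p = 0.00338) and by 1.08 under 4HPR (adjusted p = 0.00361). Scd, stearoyl-CoA desaturase, was higher by 2.84, 1.82 and 1.76 (adjusted p = 6.51e-06, 0.00124 and 0.00352). The others called under Targretin were Pnpla3 (3.46), Acacb (2.91), Scd2 (2.91), Me1 (1.91) and Acaca (1.78). Scd2, a second desaturase, fell under 9cRA (-1.81, adjusted p = 0.00814) and under 4HPR (-1.76, adjusted p = 0.0132), and Acacb rose under 9cRA (1.48, adjusted p = 0.0266), a call lost in 6 of 15 alternatives. On the isoprenoid branch list, 6 of 8 genes had a probe set and 5 were tested in liver. The 1 called was Fdx1, which encodes a mitochondrial ferredoxin and makes no isoprenoid (0.94 under Targretin, adjusted p = 0.000828).

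In lung, limma called no member under any agent: 0 of 15 under Targretin, where 2.39% of all probe sets were called, 0 of 15 under 9cRA and 0 of 15 under 4HPR, where 0% and 0% were called. At an unadjusted p under 0.05 there were 3, 5 and 2 members under Targretin, 9cRA and 4HPR, against 1391, 656 and 273 of all 5935 probe sets. The values were positive for 11 of 15 member probe sets under Targretin, 15 of 15 under 9cRA and 14 of 15 under 4HPR, against 54.4%, 56.7% and 49.4% of all probe sets. These too stand for 6 genes and share the diet arrays, so their signs are not independent. Idi1 read 984.4, 1000.9, 1267.0 and 994.6 in 9cRA lung, against 850.5, 480.7 and 443.8 in diet lung. These groups did not overlap, and the difference was 0.85 ± 0.27 (adjusted p = 0.346).

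The diet lung array with the high Idi1 reading, number 2, is the one with hepatocyte markers at 36323.4, against 3694.3 and 4037.2 on diet arrays 3 and 4 and 12417.7 to 17398.6 in 9cRA lung. Without it the Idi1 difference under 9cRA was 1.13 (adjusted p = 0.0725). Fdft1 M95591_g_at was higher than diet by 1.01 under 9cRA in lung (adjusted p = 0.315) and M95591_at by 0.92 (adjusted p = 0.372). Cyp51 rc_AA997614_s_at had the lowest adjusted p of any member in lung, with a difference of 1.41 ± 0.45 under Targretin (adjusted p = 0.094), and the value under 9cRA was 1.39 ± 0.42 (adjusted p = 0.327). In 4HPR lung, array 3, with the highest hepatocyte sum, was also the highest of its group for Idi1 (933.4), Fdps (4267.7) and Fdft1 (1754.6). Array 2 of that group, with the next highest sum (34330.7), did not follow for Idi1 and Fdps. It read 551.4 and 2910.3, against 668.9 and 3229.9 on array 1, whose sum was 20923.6. The part of liver RNA in these values was not tested.

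In mammary gland, Fdps and Fdft1 were each called higher under Targretin on 1 probe set, and other probe sets of the same genes gave other answers. These were 2 of 14 member probe sets, where 13.1% of all were called, while limma called 0 of 14 under 9cRA and 0 of 14 under 4HPR, where 0% and 0% of all were called. At an unadjusted p under 0.05 there were 3 members under 9cRA and 1 under 4HPR, against 1130 and 180 of all 6059 probe sets. Fdps M89945mRNA_at read 2340.9, 1216.8 and 1881.3 in Targretin mammary gland, 2053.8, 1718.7, 1781.2 and 674.6 in 9cRA and 971.7, 753.2 and 1110.8 in 4HPR, against 1027.0, 66.7, 327.7 and 812.1 in diet. All 3 Targretin arrays lay above the 4 diet arrays, of which arrays 2 and 3 were far below the others. These diet arrays also had the lowest 3' control signals in mammary gland, 11028.3 and 9684.8 for beta-actin, against 36098.3 to 39714.3 under Targretin, and 2591.6 and 2987.8 for GAPDH, against 10203.2 to 20152.2 under Targretin. The beta-actin 3'/5' ratios of the groups did not overlap, at 3.45, 2.86 and 3.69 under Targretin and 3.71, 6.21, 4.61 and 4.56 on diet. The GAPDH 3'/5' ratios did overlap, at 4.12, 3.13 and 2.82 under Targretin and 2.73, 2.48, 3.2 and 2.8 on diet. The part of RNA quality in the Fdps and Fdft1 calls was not tested. The difference was 2.05 ± 0.61 under Targretin (adjusted p = 0.039), 1.78 ± 0.57 under 9cRA (adjusted p = 0.154) and 1.17 ± 0.61 under 4HPR (adjusted p = 0.999).

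Fdft1 M95591_at read 1405.7, 972.0 and 1537.0 in Targretin mammary gland, against 950.0, 122.4, 105.7 and 659.4 in diet mammary gland. The same diet arrays, 2 and 3, with the low control signals, were low, and the groups did not overlap. The difference was 1.89 ± 0.58 under Targretin (adjusted p = 0.0422), 1.38 under 9cRA (adjusted p = 0.197) and 1.34 under 4HPR (adjusted p = 0.999).

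Idi1 was not called in mammary gland. It read 514.7, 682.0, 656.3 and 626.8 in 9cRA mammary gland, against 868.4, 725.2, 752.2 and 739.2 in diet mammary gland, and all 9cRA arrays lay below all diet arrays. Its difference was -0.30 ± 0.21 (adjusted p = 0.455). For the 6 tested probe sets of Sqle, Lss and Cyp51, the differences under the 3 agents ran from -0.53 (Cyp51 AB004096_at, Targretin) to 0.72 (Lss U31352_at, Targretin), and none passed.

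The other probe sets of Fdps and Fdft1 did not all follow. Fdps M89945mRNA_g_at was higher under Targretin by 1.03 (adjusted p = 0.0577), but rc_AI180442_at gave -0.24 (adjusted p = 0.656). Fdft1 M95591_g_at gave 0.31 (adjusted p = 0.732), rc_H33426_at -0.13 (adjusted p = 0.739) and rc_H33426_g_at 1.02 (adjusted p = 0.0788). Both calls were lost in 9 of 14 alternatives, 5 of which left out 1 array: each of the 3 Targretin arrays and diet arrays 2 and 3 (adjusted p = 0.0698 to 0.116 for Fdps and 0.0791 to 0.119 for Fdft1). One of these is Targretin array 3, with skeletal muscle markers at 51979.2; without it the differences had adjusted p = 0.0978 and 0.115. The 8 hepatocyte marker genes also separated the groups, summing to 3735.6 to 8119.8 in Targretin mammary gland and 53806.9 to 96306.6 in diet mammary gland. So did the 8 mammary epithelium marker genes, at 245716.2 to 352218.6 under Targretin and 151103.9 to 236705.8 on diet. The part of these marker genes in the result was not tested.

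**Figure D3:**
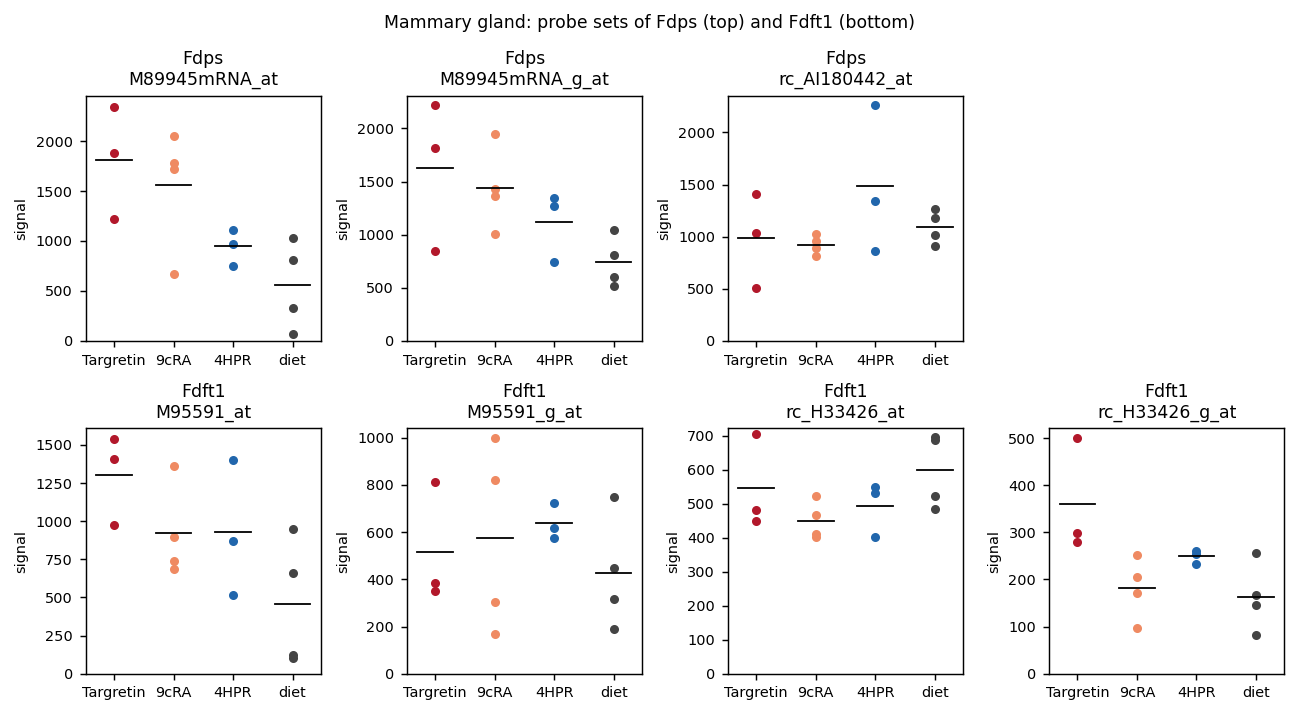
Signal (linear axis) in mammary gland on every array for the 3 probe sets of Fdps (top) and the 4 of Fdft1 (bottom), with Targretin, 9cRA, 4HPR and diet from left to right; bars are group means. On M89945mRNA_at and M95591_at all 3 Targretin arrays exceed all 4 diet arrays, which reach down to 66.7 and 105.7, while on rc_AI180442_at and rc_H33426_at the groups overlap.

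Of the other pathway genes in mammary gland, Mvd, mevalonate diphosphate decarboxylase, averaged 831.4 ± 143.5 under Targretin and 381.8 ± 110.5 on diet (SD, n = 3 and 4; difference 1.08, adjusted p = 0.0318), the 1 of 6 tested that passed. Its call was lost in 9 of 14 alternatives. On the other lists Nr1h2, an LXR gene (1.10, adjusted p = 0.0176), Scarb1, the HDL receptor (1.33, adjusted p = 0.0101), and Acaca (1.98, adjusted p = 0.0227) rose under Targretin in mammary gland, and Fdx1 fell (-0.66, adjusted p = 0.0408). These calls were lost in 5 (Nr1h2), 1 (Scarb1), 6 (Acaca) and 9 (Fdx1) of 14 alternatives.

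A moderated F over 6 interaction terms asked whether the agents' changes from diet depend on the organ, for the 14 member probe sets that passed the filter in all 3 organs. Idi1 was the 1 called (F = 4.62, adjusted p = 0.0234), where 8.2% of all 5120 probe sets were called. The 9cRA value of Idi1 minus diet was 1.14 for liver, 0.85 for lung and -0.30 for mammary gland. The difference of the 9cRA change in mammary gland from that in liver was -1.44 ± 0.39 (95% interval -2.22 to -0.66, adjusted p = 0.0544), and in lung from that in liver -0.28 ± 0.40 (-1.10 to 0.53). Idi1 lost the F call without Targretin liver array 1, without Targretin liver array 3 and without 9cRA mammary gland array 1. The mammary gland change of Fdps under Targretin exceeded that in liver by 1.91 (adjusted p = 0.0487) and that in lung by 2.21 (adjusted p = 0.0441) on M89945mRNA_at, but by 0.04 and 0.13 on rc_AI180442_at (adjusted p = 0.971 and 0.922). On M89945mRNA_g_at these differences were 1.12 and 0.96 and did not pass (adjusted p = 0.0616 and 0.179). The lowest diet mammary gland arrays on M89945mRNA_at also had the lowest 3' control signals, as given above. For Cyp51 AB004096_at the Targretin change was lower in mammary gland than in lung, by -1.33 (adjusted p = 0.0295). On the Cyp51 probe sets U17697_s_at and rc_AA963449_s_at this difference was -0.33 and -0.68 and did not pass (adjusted p = 0.654 and 0.314).

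**Figure D4:**
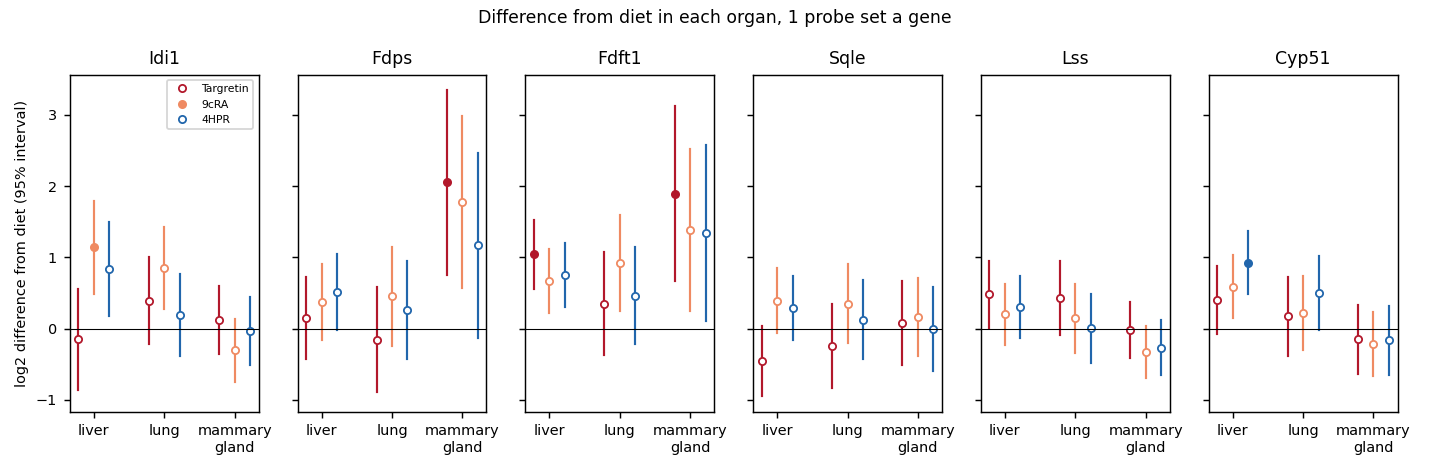
Log2 difference from diet with its 95% interval, by organ, for the brightest probe set of each gene, with Targretin, 9cRA and 4HPR from left to right; filled circles are called at adjusted p under 0.05. Idi1 under 9cRA lies at 1.14 in liver and -0.30 in mammary gland, and the intervals of Fdps and Fdft1 are widest in mammary gland.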

How the data were processed

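The series matrix holds the authors' MAS5 signals, per the submitters' processing notes: 43 arrays by 8799 probe sets, of which 59 are controls. The deposited values are linear intensity with no negative value, and the 2% trimmed means of the arrays run from 1501.78 to 1503.29, which shows a global scaling by the authors. For MAS5, neither version nor settings is given in the sources used here. No depth exists for arrays, and the number of arrays limits the precision.

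Gene symbols came from the platform annotation, in which 7006 probe sets had 1 symbol, 308 several and 1426 none, and only the first kind was named. Where a gene is counted once, the probe set with the highest mean over all arrays was used. Signals were not normalized again. They were tested as log2(signal + 38.1), 38.1 being the 10th percentile of all values, with limma 3.58.1 (lmFit, eBayes with trend) in R 4.3.3, with 1 fit of 4 groups per organ, and in 1 fit of all 43 arrays for comparisons between organs. The Benjamini-Hochberg adjustment ran over all probe sets tested. Alternatives were quantile normalization, no filter, a pseudocount 4 times larger, a replicate block, array weights, only the groups compared, leaving out each array, and leaving out the 4 arrays in doubt (4HPR liver 4, Targretin lung 2, 4HPR lung 3 and Targretin mammary gland 3). The code was tested on simulated data.

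The member genes, gene lists and tests were chosen with earlier results of these data known. The named genes follow a fixed rule: every member probe set, the list genes that pass against diet, with Msmo1 also between agents, and the 5 genes most like the members. Array numbers were not used to pair arrays, since the deviations of same-numbered arrays of different agents had a median correlation of -0.00664 for liver, 0.00956 for lung and 0.0111 for mammary gland. Same-numbered arrays of 1 agent in different organs had a median of 0.044 (-0.147 to 0.229 over 41 pairs), and whether they share a rat is not known.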

Additional observations from a re-analysis of the deposited data

Results flagged for a closer look

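Of 109 groups of 4 arrays examined over the member probe sets, 8 held an array whose gap to its nearest neighbour was large for the range of the group (Dixon's test at 95%), where chance gives about 5.4. In 9cRA lung, Idi1 read 1267 on array 3 against 984.4 to 1000.9 on the others. In 4HPR lung, Fdft1 M95591_g_at read 785.1 on array 3, the array with raised hepatocyte markers, against 511.3 to 533.7. In 9cRA liver, array 4 was low on a pair of Cyp51 probe sets, at 6127.3 against 8052.2 to 8164.3 on U17697_s_at and at 3689.8 against 4610.3 to 4687.1 on AB004096_at. In diet liver, array 3 read 1773.3 on Fdft1 M95591_g_at against 2129.7 to 2184.2, and array 2 read 1498.2 on Lss D45252_s_at against 1935 to 2013.4. Diet liver array 4 was high on Fdft1 rc_H33426_at (1748.1 against 1182.9 to 1266.9) and on Lss U31352_at (1256.9 against 933.9 to 977.2).

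The change of Idi1 from diet differed between organs in the moderated F test over all arrays (F = 4.62, limma adjusted p = 0.0234). It was the 1 called of 14 member probe sets tested, where 8.2% of all 5120 probe sets were called. Leaving out 1 array at a time gave 0 to 2 called members, and some single arrays ended the Idi1 call, as given above.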

How the results depend on the processing

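Of 3389 member values set against an alternative, 3130 kept their direction and their side of the threshold, 83 lost a call, 45 gained one and 131 changed sign. Member counts: with quantile normalization, 0 were called under Targretin in mammary gland. With no filter there was 1 under 9cRA in liver, and there were 0 under Targretin in mammary gland and 0 for Targretin against 4HPR. With the replicate block there was 1 under 9cRA in liver, 1 for Targretin against 9cRA and 0 for Targretin against 4HPR, and no other member count moved by over 1.5 times. With array weights there were 6 under 4HPR in liver, 2, 6 and 2 under Targretin, 9cRA and 4HPR in lung, 1 for Targretin against 9cRA, 2 for Targretin against 4HPR and 3 for the organ difference. With only the groups compared there were 4 under 9cRA and 1 under 4HPR in liver, 0 under Targretin in mammary gland, 0 for Targretin against 9cRA and 0 for Targretin against 4HPR. Without the 4 arrays in doubt, an alternative chosen after seeing the data, there were 4 under 9cRA in liver, 1 under Targretin in lung and 0 under Targretin in mammary gland.

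Leaving out 1 array at a time gave 2 to 3 members under Targretin in liver, 0 to 2 under 9cRA, 0 to 4 under 4HPR, 0 to 1 under Targretin in lung, 0 to 3 under Targretin in mammary gland, 0 to 2 for Targretin against 9cRA, 0 to 2 for Targretin against 4HPR, 0 to 2 for the organ difference, 17 for diet liver against either organ and 5 to 6 for diet mammary gland against lung. Some uncalled differences near 0 changed sign, and their ranges without 1 array were, under Targretin in liver, -0.468 to 0.0816 for Idi1, -0.172 to 0.287 for Cyp51 AB004096_at (-0.00435 with quantile normalization), -0.448 to 0.133 for Cyp51 rc_AA997614_s_at and -0.203 to 0.105 for Fdps M89945mRNA_g_at. Under 9cRA in liver they were -0.0826 to 0.126 for Fdps M89945mRNA_g_at (-0.00952 with quantile normalization), -0.33 to 0.00831 for Fdps rc_AI180442_at and -0.0874 to 0.282 for Cyp51 rc_AA997614_s_at, and under 4HPR -0.149 to 0.514 for Cyp51 rc_AA997614_s_at. In mammary gland under Targretin they were -0.0507 to 0.608 for Fdft1 M95591_g_at and -0.546 to 0.154 for Fdps rc_AI180442_at.

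Counts over all probe sets moved as well. With array weights 483 were called under 9cRA and 443 under 4HPR in liver (314 and 169 in the report's setting), 697, 964 and 398 under Targretin, 9cRA and 4HPR in lung (142, 0 and 0), 1308 under Targretin in mammary gland (796), 22 for 9cRA against 4HPR (10) and 1017 for the organ difference (420). For Targretin in lung, the replicate block and only the groups compared each gave 0. With quantile normalization, the replicate block or only the groups compared, 6 were called for 9cRA against 4HPR, and only the groups compared gave 291 for Targretin against 4HPR (479). Without the arrays in doubt there were 505 under 9cRA and 281 under 4HPR in liver and 410 under Targretin in mammary gland. Without 1 array the range was 420 to 585 under Targretin, 204 to 279 under 9cRA and 98 to 281 under 4HPR in liver, 0 to 442, 0 to 38 and 0 to 80 in lung, 338 to 1056, 0 to 148 and 0 to 0 in mammary gland, 278 to 494 for Targretin against 4HPR and 3 to 18 for 9cRA against 4HPR. With quantile normalization the 4HPR liver median over all probe sets was -0.00232, against -0.105. The cause of these moves was not tested.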
